A study of Mus musculus with 12 samples.

Results

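The 10 genes studied here belong to the transforming growth factor beta (TGF-beta) pathway and were measured in RNA-seq libraries of sorted mouse brain cells: the ligands Tgfb1 and Tgfb2, the latency proteins Ltbp1, Ltbp3 and Nrros, the receptors Tgfbr1 and Tgfbr2, and the intracellular mediators Smad2, Smad3 and Smad7. They were taken by symbol, 10 of the 55401 gene IDs counted, and all 10 were among the 12613 genes that passed the filter on low counts. The cells came from cortex and hippocampus of mice that carry the CD51-Flp and Rosa-CAG-FSF-tdTomato alleles, in which Flp made under control of CD51 (integrin alpha-v) switches on the red reporter tdTomato. All sorted cells were GFP+, and those that were also tdTomato+ are labelled CD51+ astrocytes and those without tdTomato CD51- astrocytes. Each of the 4 groups (cortex CD51+, cortex CD51-, hippocampus CD51+, hippocampus CD51-) holds 3 libraries, 12 in all. What drives GFP, the age and sex of the mice and any treatment are not given in the sources used here, and nothing states that replicates are separate animals, so a p-value here speaks only of sample-to-sample spread, part of which may be technical.

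The library names carry G where the titles say CD51+ and GT where they say CD51-, a coding that may mean the reverse. Groups here follow the titles. If the titles are crossed, every CD51 difference below changes sign. Total counts per library, in units of 1e6, ran from 4.35 to 12.85. Mitochondrial genes took 36.5% to 71.1% of the counts in the CD51+ libraries and 20.2% to 38.6% in the CD51- libraries. Levels are given as CPM, the counts of a gene per 1e6 of a library size scaled by a normalization (TMM) factor. These factors ran from 0.3862 in cortex CD51+ replicate 3 to 1.534 in hippocampus CD51- replicate 3. The 15 astrocyte markers summed to 44383 to 70202 CPM across the 6 CD51+ libraries and to 4271 to 15539 CPM in the 6 CD51- libraries. In the CD51- libraries the markers of microglia and oligodendrocytes were higher instead, and these values stand beside the results they move with. In 5 of the 6 CD51- libraries the sum of 10 oligodendrocyte markers was above that of the astrocyte markers, which goes against the astrocyte label, so the class is called here by its CD51 label.

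TGF-beta is secreted as an inactive complex in which the growth factor stays bound to its own propeptide. Latent TGF-beta binding proteins (Ltbp1, Ltbp3) anchor this complex in the matrix, and Nrros, a transmembrane protein of microglia and other myeloid cells, presents it at the cell surface. Alpha-v integrins activate TGF-beta1 and TGF-beta3 by binding an arginine-glycine-aspartate (RGD) motif in the propeptide, and the beta8 partner of alpha-v serves this function in the brain. The freed ligand joins the type II receptor Tgfbr2 with the type I receptor Tgfbr1, which phosphorylates Smad2 and Smad3, while Smad7 is an inhibitor that the pathway itself induces. In the brain, TGF-beta signalling is known for maintaining the mature state of microglia.

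The ligands are shown first because they differ in the integrin motif and because their levels went in opposite directions in cortex. The coding stretches below run 5′ to 3′ on the sense strand of the GENCODE vM21 transcripts (GRCm38, the assembly also called mm10). Capitals mark the 9 bases that encode RGD, found once in frame in Tgfb1 and Tgfb3 and in 0 places in Tgfb2. The Tgfb2 line is the stretch that aligns with it and has no capitals. The Tgfb1 stretch crosses a junction, with chr7:25696992-25696995 in exon 4 and chr7:25697125-25697171 in exon 5 of 7 (plus strand). Those of Tgfb3 (chr12:86062144-86062194) and Tgfb2 (chr1:186630732-186630782), both on the minus strand, lie in exon 5 of 7.
Tgfb1: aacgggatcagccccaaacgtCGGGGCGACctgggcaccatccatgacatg
Tgfb3: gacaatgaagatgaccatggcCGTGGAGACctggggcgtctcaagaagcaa
Tgfb2: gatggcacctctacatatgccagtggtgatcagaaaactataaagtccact

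The 250 bases upstream of the start of Tgfb1 and Tgfb2 are shown because these promoters belong to the 2 genes that were called in opposite directions in cortex. They come from RefSeq (GRCm38.p6), at chr7:25686752-25687001 on the plus strand for Tgfb1 and chr1:186705990-186706239 on the minus strand for Tgfb2. Capitals mark the GC box, the letters GGGCGG on either strand (CCGCCC on the other). It occurs 5 times in the Tgfb1 window and 0 times in the Tgfb2 window. The windows of 8 of the 10 members were counted, and those of Smad2 and Smad7 were not. Tgfbr2 and Nrros, lower in CD51+ like Tgfb1, have 0, as do Ltbp1 and Ltbp3. Smad3 has 2, and Tgfbr1 has 2 or 0 depending on the start listed. A link between this number and the direction of a gene was not tested. Of the 32851 promoters in the table, 32.7% hold at least 1 in the same window and 1.93% hold 5 or more. G and C make up 75.2% of the Tgfb1 window and 53.6% of the Tgfb2 window, against a median of 52.4%. A match is a description of the letters, not a bound site.
Tgfb1: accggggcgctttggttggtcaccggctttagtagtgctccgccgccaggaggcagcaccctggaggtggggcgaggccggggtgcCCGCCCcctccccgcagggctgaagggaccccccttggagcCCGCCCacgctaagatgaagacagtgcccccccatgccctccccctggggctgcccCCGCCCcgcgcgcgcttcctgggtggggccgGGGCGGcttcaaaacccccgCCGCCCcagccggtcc
Tgfb2: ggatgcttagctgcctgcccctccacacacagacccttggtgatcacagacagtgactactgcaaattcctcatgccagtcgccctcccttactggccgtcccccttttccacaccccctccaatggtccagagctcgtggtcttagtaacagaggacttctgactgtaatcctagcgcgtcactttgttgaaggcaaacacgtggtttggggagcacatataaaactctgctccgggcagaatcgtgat

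In cortex the ligands differed between the CD51 classes in opposite directions. Tgfb1 (ENSMUSG00000002603.15, chr7:25687002-25705077, plus strand), the main TGF-beta of immune cells, was at 0.167, 2.04 and 1.01 CPM in cortex CD51+ replicates 1 to 3 and at 80.5, 79.7 and 48.4 CPM in cortex CD51-. The hippocampal CD51+ libraries had 0.456, 0.8 and 7.66 CPM and their CD51- counterparts 66.7, 34.7 and 100 CPM. Every CD51+ library lay below every CD51- library of its region. In cortex Tgfb1 fell by 5.99 ± 1.46 on the log2 scale (SE; edgeR quasi-likelihood test, Benjamini-Hochberg adjusted p = 0.0102). Its difference in hippocampus, a log2 fold change of -4.49 ± 1.36, did not pass (edgeR adjusted p = 0.0708). It passed without hippocampus CD51+ replicate 3 (adjusted p = 0.037), in DESeq2 (0.000609), in limma-voom (0.0244) and with no filter (0.0455). Without cortex CD51+ replicate 2 the cortical log2 fold change was -6.88.

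Tgfb2 (ENSMUSG00000039239.14, chr1:186622792-186705989, minus strand), the isoform without the RGD codons, went the other way in cortex. It was at 151, 177 and 27.6 CPM in the cortex CD51+ libraries and at 0, 0 and 3.04 CPM in the cortex CD51- libraries. The ranges did not overlap, and Tgfb2 rose by 6.89 ± 1.64 log2 (SE; edgeR adjusted p = 0.00878). All 21 cortex CD51- counts came from replicate 3, so without it the cortical CD51- group has no Tgfb2 count and the fitted value becomes 12.91, and without cortex CD51- replicate 1 it was 6.29. The hippocampal CD51+ libraries held 60.2, 39.2 and 65.9 CPM, and 43.7, 33.5 and 4.41 CPM were found in hippocampus CD51-. Those ranges overlapped, and the log2 fold change of 1.02 ± 1.27 did not pass (edgeR adjusted p = 0.763). An opposite-strand gene, Gm29491, shares 124 bases (2.1%) of the Tgfb2 exons, and the unstranded counts cannot separate it.

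Set against each other within a library, and scaled by exon length, the ligands divided the 12 libraries by class. Tgfb2 made up 99.9%, 98.7% and 96% of the summed Tgfb1 and Tgfb2 level in cortex CD51+, a mean of 98.2% ± 2.0 (SD, n = 3). In cortex CD51- the share was 0%, 0% and 5.19%, where the 95% exact binomial interval allows up to 0.334% and 0.478% in the libraries with no Tgfb2 count. For hippocampus CD51+ it was 99.1%, 97.7% and 88.2%, compared with 36.3%, 45.7% and 3.68% for hippocampus CD51-. Of these 2 ligands, Tgfb2 was the more abundant in all 6 CD51+ libraries and in 0 of the 6 CD51- libraries. The CD51- libraries of the hippocampus thus held both ligands, with intervals of 33.8% to 38.9%, 42.1% to 49.3% and 2.73% to 4.84%. Intervals cover counting error only, and the share does not depend on the scaling between libraries. The plot of pair shares by library shows this division. The third isoform, Tgfb3, is not part of the share. In cortex CD51+ replicate 3 Tgfb3 was at 59.1 CPM, where Tgfb2 was at 27.6 CPM.

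**Figure D1:**
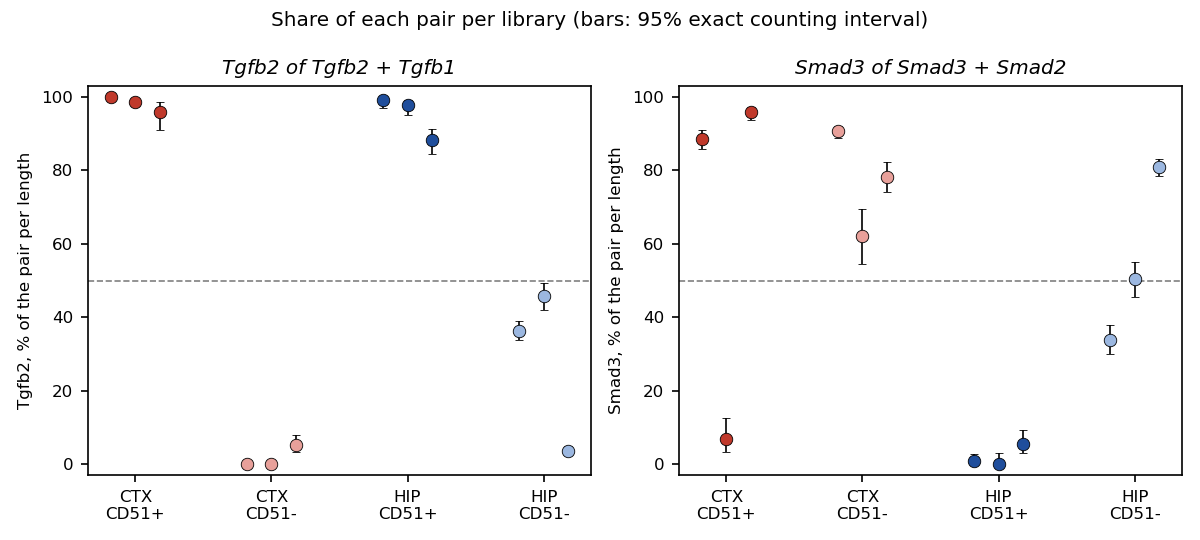
Share of Tgfb2 in the summed Tgfb2 and Tgfb1 level (left) and of Smad3 in the summed Smad3 and Smad2 level (right), in % per exon length, with 1 point per library, 95% exact counting intervals as bars and a dashed line at equal levels. CTX is cortex and HIP hippocampus. Tgfb2 lies between 88.2% and 99.9% in the CD51+ libraries and between 0% and 45.7% in the CD51- libraries, while Smad3 separates the hippocampal CD51+ libraries (0% to 5.46%) from the rest of the hippocampus.

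Among the latency proteins, the myeloid presenter was called and neither matrix anchor was. Nrros (ENSMUSG00000052384.14, chr16:32142785-32165594, minus strand) was at 0, 0 and 0.202 CPM in cortex CD51+ and at 70.1, 26.9 and 21.9 CPM in cortex CD51-. The whole cortical CD51+ group held 1 Nrros count against 1213, a ratio of 838 in favour of CD51- (95% counting interval 150 to 33111), and Nrros fell in cortex (edgeR adjusted p = 0.00682). Hippocampus CD51+ libraries had 0.228, 15.5 and 0.999 CPM of Nrros, whereas hippocampus CD51- libraries had 26.6, 21.6 and 136 CPM. These ranges did not overlap either, with replicate 2 of the CD51+ group nearest to the CD51- libraries, and the log2 fold change of -3.45 ± 1.54 did not pass (edgeR adjusted p = 0.218). It was -6.59 without CD51+ replicate 2 and -2.12 without CD51- replicate 3.

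Ltbp1 (ENSMUSG00000001870.16, chr17:75005568-75392512, plus strand), a matrix anchor of latent TGF-beta, varied within classes. It was at 49.9, 84.6 and 19.6 CPM in cortex CD51+, while the cortex CD51- libraries had 0.0838, 68.6 and 3.48 CPM. Ltbp1 reached 25.7, 54.1 and 53.1 CPM in hippocampus CD51+, compared with 6.04, 29.0 and 13.7 CPM in hippocampus CD51-. The ranges overlapped in both regions, with log2 fold changes of 1.09 ± 1.38 and 1.45 ± 1.39 that did not pass (edgeR adjusted p = 0.638 and 0.671). The cortical value was 4.07 in limma-voom, 4.88 without CD51- replicate 2 and 0.5 without CD51- replicate 3, and none of these passed. Without cortex CD51- replicate 2, which held 576 of the 601 counts of its group, the difference averaged over regions passed (adjusted p = 0.0348, against 0.382 with it).

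Ltbp3 (ENSMUSG00000024940.11, chr19:5740904-5758532, plus strand), the other anchor measured, was detected mainly in cortex CD51+, at 53.2, 3.95 and 3.43 CPM, where replicate 1 held 319 of 367 counts. Cortex CD51- had 0.168, 0 and 0 CPM, a total of 2 counts. The pooled ratio was 266 (95% counting interval 73 to 2203), and the ranges did not overlap, but the difference did not pass (edgeR adjusted p = 0.0659) except in limma-voom (0.0181). Raw counts of 7, 1 and 2 in hippocampus CD51+ faced 0, 35 and 3 in hippocampus CD51-, a log2 fold change of -0.77 ± 2.14 (edgeR adjusted p = 0.909). The ranges overlapped there.

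Both receptors were lower in the CD51+ libraries. Tgfbr1 (ENSMUSG00000007613.15, chr4:47353222-47414931, plus strand), the type I receptor kinase, was at 36.4, 93.5 and 130 CPM in cortex CD51+ and at 884, 567 and 423 CPM in cortex CD51-. Hippocampus CD51+ had 7.29, 5.06 and 9.65 CPM of it, hippocampus CD51- 405, 512 and 535 CPM. The classes did not overlap in either region. Tgfbr1 fell by 2.85 ± 0.63 log2 in cortex (SE; edgeR adjusted p = 0.00526) and by 6.04 ± 0.74 log2 in hippocampus (adjusted p = 3.31e-05), and stayed called in all 22 alternative fits of each region.

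Tgfbr2 (ENSMUSG00000032440.13, chr9:116084293-116175360, minus strand), the type II receptor that binds the ligand, was at 0, 1.4 and 20.2 CPM in cortex CD51+ and at 64.9, 81.1 and 49.4 CPM in cortex CD51-. Its hippocampal levels were 0.228, 0.133 and 3.66 CPM for CD51+ compared with 78.1, 42.0 and 181 CPM for CD51-. The classes again did not overlap. Tgfbr2 fell by 6.2 ± 1.69 log2 in hippocampus (SE; edgeR adjusted p = 0.0429). Without CD51+ replicate 3 the value was -9.06. The call was lost without hippocampus CD51+ replicate 1 (0.134), CD51+ replicate 2 (0.149) or CD51- replicate 3 (0.117), and with upper-quartile factors (0.0507). In cortex the log2 fold change of -3.18 ± 1.46 did not pass (edgeR adjusted p = 0.136) and passed without cortex CD51+ replicate 3 (log2 fold change -6.47, 0.0313) and in limma-voom (-5.58, 0.0288).

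Of the Smads, the inhibitor was called and the receptor-activated pair was not. Smad7 (ENSMUSG00000025880.11, chr18:75367529-75395935, plus strand) was at 0.334, 0.127 and 0 CPM in cortex CD51+ and at 121, 106 and 80.9 CPM in cortex CD51-. The pooled counts were 3 against 2893, a ratio of 666 in favour of CD51- (95% counting interval 228 to 3231), and Smad7 fell in cortex (edgeR adjusted p = 0.000228). Smad7 stood at 5.92, 24.0 and 4.16 CPM in hippocampus CD51+, compared with 78.0, 82.8 and 121 CPM in hippocampus CD51-. The ranges did not overlap, and the log2 fold change of -3.04 ± 1.02 did not pass (edgeR adjusted p = 0.109) except in DESeq2 (adjusted p = 0.00677).

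Smad2 (ENSMUSG00000024563.16, chr18:76241580-76310963, plus strand), a receptor-activated Smad, was at 13.5, 24.5 and 4.43 CPM in cortex CD51+ and at 10.1, 9.28 and 14.5 CPM in cortex CD51-. It was at 92.3, 25.5 and 54.8 CPM in hippocampus CD51+ and at 43.1, 25.7 and 20.6 CPM in hippocampus CD51-. The classes overlapped in both regions (log2 fold changes 0.32 ± 1.14 and 0.95 ± 1.15, edgeR adjusted p = 0.893 and 0.755).

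Smad3 (ENSMUSG00000032402.12, chr9:63646767-63757994, minus strand), the other receptor-activated Smad, was at 65.9, 1.15 and 63.9 CPM in cortex CD51+ and at 62.3, 9.64 and 33.0 CPM in cortex CD51-, with full overlap and a log2 fold change of 0.32 ± 1.42 (edgeR adjusted p = 0.918). Only 0.456, 0 and 2.0 CPM were found in hippocampus CD51+, compared with 13.9, 16.4 and 54.9 CPM in hippocampus CD51-. The hippocampal ranges did not overlap, but the log2 fold change of -5.1 ± 1.71 did not pass (edgeR adjusted p = 0.109). It passed in DESeq2 (0.00256), and averaged over regions Smad3 passed in DESeq2 (0.0342) and limma-voom (0.0454) but not in edgeR (0.111). Smad3 was 0.776%, 0% and 5.46% of the summed Smad2 and Smad3 level per length in hippocampus CD51+, so Smad2 was the more abundant of the pair in all 3. In cortex CD51- the share was 62.2% to 90.7%, and in cortex CD51+ it was 88.5%, 6.91% and 95.8%.

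**Figure D2:**
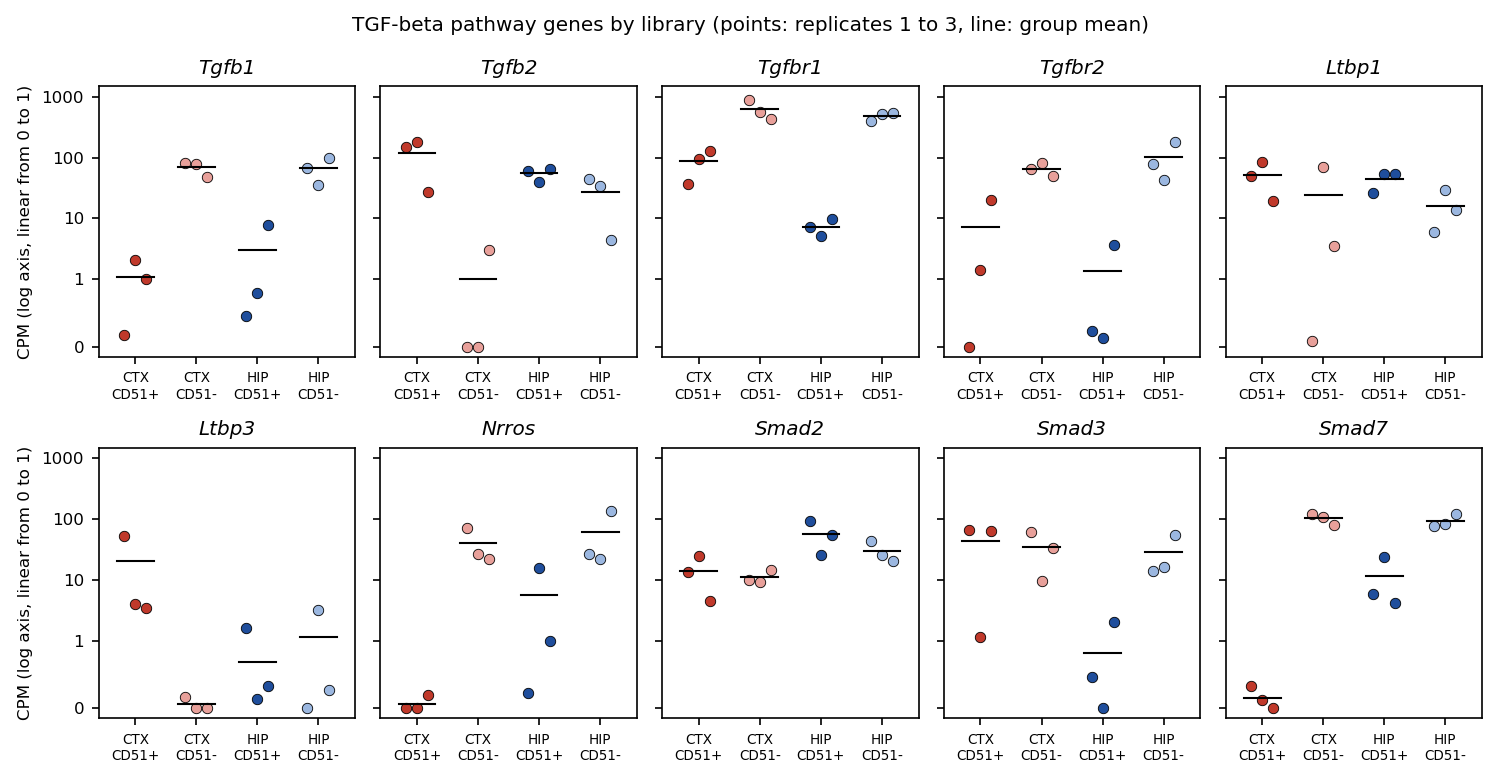
CPM of each gene in every library (vertical axis logarithmic above 1 and linear from 0 to 1), with points for replicates 1 to 3 and a line at the group mean. Tgfb1, Tgfbr1, Tgfbr2, Nrros and Smad7 are lower in every CD51+ library than in every CD51- library of the same region, and Tgfb2 is higher in cortex CD51+ (27.6 to 177 CPM) than in cortex CD51- (0 to 3.04 CPM).

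Counted together, 5 of the 10 genes were called in cortex, 1 higher (Tgfb2) and 4 lower (Tgfb1, Tgfbr1, Nrros, Smad7). Over all 12613 genes tested, 5.05% were called higher and 6.27% lower in cortex. In hippocampus 0 were called higher and 2 lower (Tgfbr1, Tgfbr2), against 0.618% and 2.7% of all genes. DESeq2 also called 0 higher there and 5 lower, against 3.0% and 8.33% of all genes by that tool. At an unadjusted p under 0.05, 7 members passed in cortex and 6 in hippocampus (31.9% and 19.1% of all genes). The classes did not overlap for 7 of the 10 genes in cortex and for 6 in hippocampus, against 31.7% and 27.1% of all genes. The median log2 fold change of the 10 genes was -1.27 in cortex and -3.25 in hippocampus, beside -0.03 and -0.22 over all genes.

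Averaged over both regions, 6 of the 10 genes were called, 1 higher and 5 lower, where 8.87% and 13.9% of all genes were. Tgfb2 rose by 3.95 ± 1.01 log2 (SE; edgeR adjusted p = 0.00782), and Tgfb1 fell by 5.24 ± 1.0 (0.000661). Tgfbr1 fell by 4.45 ± 0.48 (1.13e-06) and Tgfbr2 fell by 4.69 ± 1.11 (0.00461). Nrros fell by 6.27 ± 1.29 (0.00144) and Smad7 fell by 6.13 ± 0.86 (2.64e-05). These 6 stayed called in each of the 21 alternative fits. Leaving out 1 library moved these estimates most for Tgfb2 (6.95 without cortex CD51- replicate 3), Tgfbr2 (-6.33 without cortex CD51+ replicate 3), Nrros (-7.83 without hippocampus CD51+ replicate 2) and Tgfb1 (-6.33 without hippocampus CD51+ replicate 3). The average uses the same libraries as the regional comparisons and is not separate evidence.

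**Figure D3:**
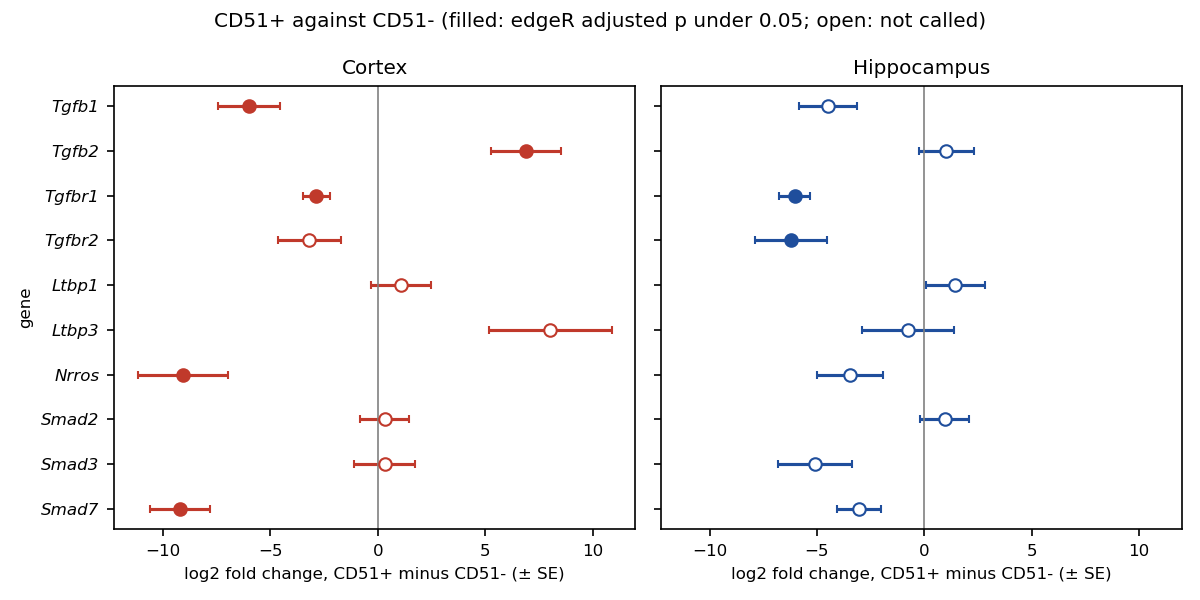
Log2 fold change of CD51+ against CD51- with its SE for each gene in cortex (left) and hippocampus (right), filled where the edgeR adjusted p is under 0.05. Tgfb2 stands to the right of 0 in cortex at 6.89, and Tgfbr1 to the left in both regions at -2.85 and -6.04; the cortical points of Ltbp3, Nrros and Smad7 are fitted from groups with 1 to 3 counts and depend on the model's prior count.

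Whether the CD51 difference itself depended on region was tested as an interaction. None of the 10 genes passed in edgeR, and 0% of all genes did. DESeq2 called 3 (4.14% of all genes) and limma-voom 0 (0%). At an unadjusted p under 0.05 there were 6 of the 10 (12.6% of all genes). For Smad7 the difference between regions was 6.17 ± 1.53 log2 (edgeR adjusted p = 0.139), for Tgfbr1 -3.19 ± 0.86 (0.157) and for Tgfb2 -5.87 ± 1.93 (0.215). A call made in 1 region, such as Tgfb2 and Nrros in cortex or Tgfbr2 in hippocampus, is thus not shown to be regional.

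Between regions, averaged over the classes, 0 of the 10 genes were called by edgeR with 0.19% of all genes called. At an unadjusted p under 0.05 there were 4 (15.1% of all genes), DESeq2 called 4 (5.8%) and limma-voom 0 (0.42%). The nearest were Tgfbr1, with a log2 difference of hippocampus minus cortex of -1.96 ± 0.43 (edgeR adjusted p = 0.0644), and Smad7 at 2.96 ± 0.76 (0.0807). Within the CD51+ libraries alone, a comparison chosen after the values were seen, Tgfbr1 fell by 3.56 ± 0.66 log2 from cortex to hippocampus (edgeR adjusted p = 0.0385), 1 of the 10 genes against 0.0396% of all genes. The 36.4 to 130 CPM in cortex CD51+ and 5.06 to 9.65 CPM in hippocampus CD51+ did not overlap. This call held in 13 of 21 alternative fits and was lost in 8, among them limma-voom (adjusted p = 0.506), the fit without cortex CD51+ replicate 2 (0.0693) or replicate 3 (0.0881), and each fit without a hippocampus CD51+ replicate (0.0904, 0.145 and 0.0572). In the same comparison DESeq2 called 4 of the 10 genes (3.89% of all genes) and limma-voom 0 (0.0159%). At an unadjusted p under 0.05 there were 4 (11.8%). Smad7 at 6.04 ± 1.25 log2 (edgeR adjusted p = 0.0676) and Nrros at 6.26 ± 1.91 (0.304) went the other way and did not pass. Cortex CD51+ held 3 and 1 counts of them. Within CD51- no member was called by edgeR (0% of all genes) or limma-voom (0.864%), and DESeq2 called 1 (5.45%). At an unadjusted p under 0.05 there was 1, Tgfb2 (13.2% of all genes). Tgfbr1 was at 423 to 884 CPM in cortex and 405 to 535 CPM in hippocampus. That member, Tgfb2, did not overlap between cortex CD51- (0 to 3.04 CPM) and hippocampus CD51- (4.41 to 43.7 CPM), with a log2 difference of 4.77 ± 1.49 (edgeR adjusted p = 0.227), and it passed without cortex CD51- replicate 3, when the cortical group holds no count. Smad2 was higher in hippocampus without overlap in both classes (9.28 to 14.5 against 20.6 to 43.1 CPM in CD51-, 4.43 to 24.5 against 25.5 to 92.3 CPM in CD51+). Its log2 difference averaged over classes, 1.71 ± 0.83, did not pass (edgeR adjusted p = 0.332). The share of all genes without overlap between regions was not counted.

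Levels of different genes can be set in order only per length, as CPM per kilobase of exon. In cortex CD51+ the order was led by Tgfb2 at 20.5 ± 13.8 CPM per kilobase (SD, n = 3), Tgfbr1 at 13.3 ± 7.24 and Smad3 at 7.88 ± 6.64, and ended with Smad7 at 0.034 ± 0.0372 and Nrros at 0.0161 ± 0.0279. Each neighbour in that order overlapped the next. In cortex CD51- Tgfbr1 led at 95.6 ± 36.1 CPM per kilobase, above Smad7 at 22.7 ± 4.49 and Tgfb1 at 13.8 ± 3.64, with no overlap between these 3 neighbours. Tgfb2 (0.175 ± 0.303) and Ltbp3 (0.00616 ± 0.0107) came last there.

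In hippocampus CD51+ the leading genes per length were Tgfb2 at 9.51 ± 2.43, Smad2 at 6.55 ± 3.82 and Ltbp1 at 4.15 ± 1.5 CPM per kilobase, and all neighbours overlapped. In hippocampus CD51- Tgfbr1 led at 74.1 ± 10.6 CPM per kilobase, above and apart from Smad7 at 20.8 ± 5.21, which was followed by Nrros at 14.7 ± 15.5, Tgfb1 at 13.3 ± 6.52 and Tgfbr2 at 12.3 ± 8.82. By group mean, Tgfbr1 thus stood first in both CD51- groups and Tgfb2 in both CD51+ groups. In cortex CD51+ replicate 3 Tgfb2 (4.77 CPM per kilobase) was below Tgfbr1 (19.9) and Smad3 (11.5). In hippocampus CD51+ replicate 1 Smad2 (10.5) was just above Tgfb2 (10.4).

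Markers of other cell types moved with the same labels. The 12 microglial markers summed to 334 to 997 CPM in cortex CD51+ and 8070 to 11155 CPM in cortex CD51-, with 7 of 12 called lower. The hippocampal sums were 204, 220 and 1563 CPM for CD51+ compared with 5161 to 7520 CPM for CD51-, with 6 of 12 lower. Of the defining markers Aif1 was at 0 in cortex CD51+ and none was at 0 in the other groups. The 10 oligodendrocyte markers summed to 2701 to 2835 and 32995 to 63389 CPM in cortex, and to 1245 to 4902 and 6831 to 37664 CPM in hippocampus. The 10 markers of other leukocytes summed to at most 30.8 CPM in CD51+ and to 564 to 657 CPM in CD51-, and the T cell marker Cd3e was at 0 in all 4 groups. The 8 endothelial markers summed to at most 34.2 CPM in any library. Neuronal markers summed to 129 to 421 CPM in CD51+ and 25.7 to 287 CPM in CD51-, oligodendrocyte precursor markers to 46 to 108 and 0.277 to 62.5 CPM, mural cell markers to 23 to 68.3 and 0.357 to 229 CPM, and fibroblast markers to 0.832 to 35.5 and 0 to 14.9 CPM. Markers of ependyma and choroid plexus summed to 24.2 to 434 CPM in the cortical libraries and 446 to 5549 CPM in the hippocampal ones. Of these 5 lists only 1 precursor and 1 mural marker (higher) and 1 ependymal or choroid plexus marker (lower) were called, all in cortex. In bulk samples fewer cells of a type and less RNA per cell cannot be told apart.

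Set against the microglial sum of the same library, the 5 genes that were lower in CD51+ did not behave alike. Tgfbr1 was at 93.8 to 268 CPM per 1000 CPM of microglial markers in cortex CD51+ and at 52.2 to 79.2 in cortex CD51-, so on this scale it was not lower in the cortical CD51+ libraries. Hippocampus CD51+ libraries lay lower, at 6.18 to 35.8, than hippocampus CD51- libraries, at 70.8 to 78.6. Tgfb1 was at 0.5 to 2.08 in cortex CD51+ and 6.0 to 7.34 in cortex CD51-, below on this scale as well, and its hippocampal ranges of 2.23 to 4.9 and 4.79 to 13.3 overlapped slightly. Smad7 was at 0 to 1.0 in cortex CD51+ and 9.76 to 10.8 in cortex CD51-, but at 2.66 to 109 and 11.4 to 16.1 in hippocampus, where the ranges overlapped. Nrros was at 0 to 0.415 and 2.48 to 6.28 in cortex, and at 0.639 to 70.1 and 2.98 to 18.1 in hippocampus. Tgfbr2 overlapped in cortex (0 to 41.5 against 5.82 to 7.46) and not in hippocampus (0.605 to 2.34 against 5.8 to 24.1). The part of microglia in these differences was not tested beyond these values.

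**Figure D4:**
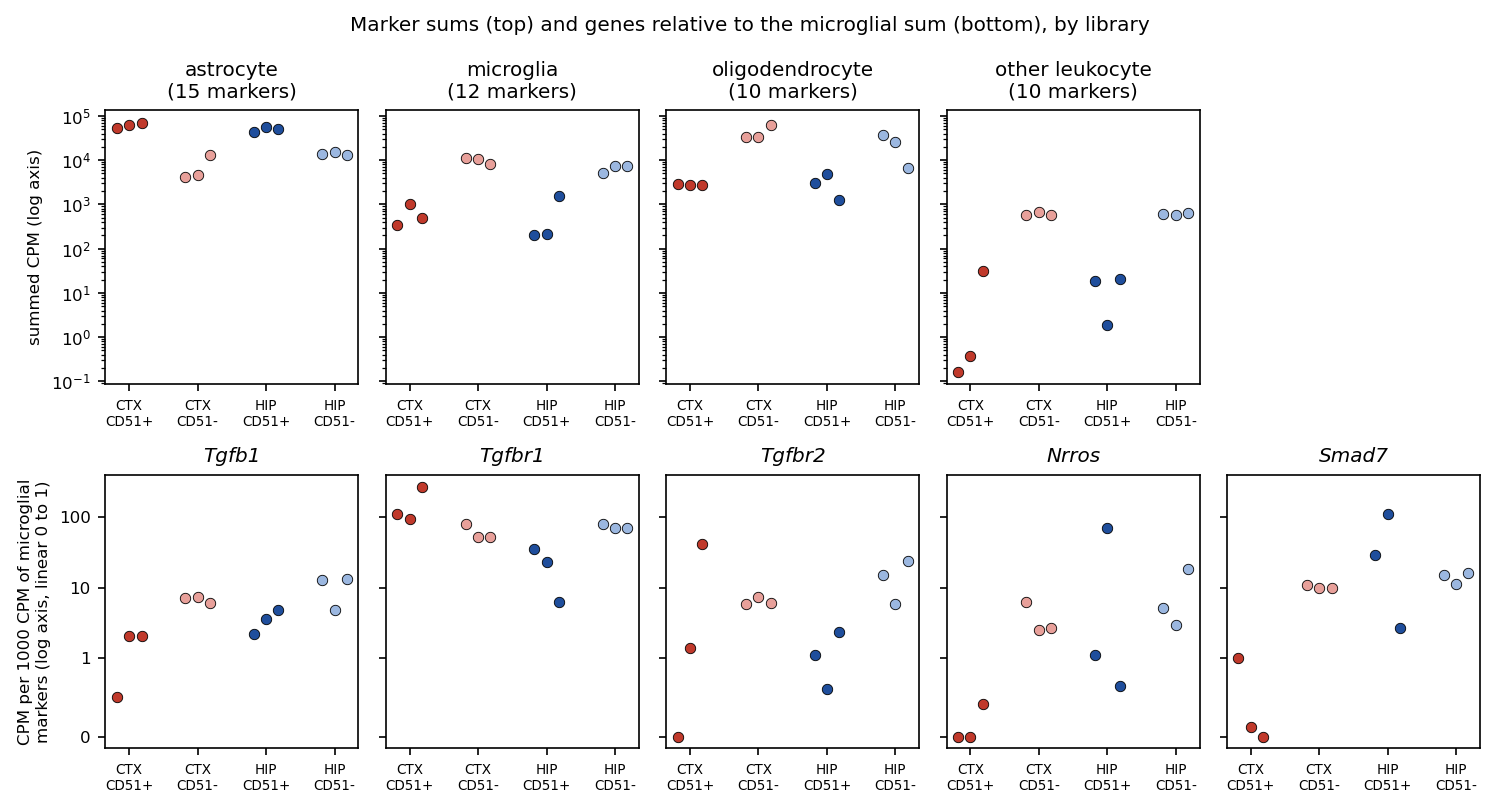
Top, summed CPM of marker lists in every library on a log axis; bottom, CPM of 5 genes per 1000 CPM of the microglial sum (log axis, linear from 0 to 1). The microglial sum lies between 204 and 1563 CPM in the CD51+ libraries and between 5161 and 11155 CPM in the CD51- libraries, and Tgfbr1 relative to it is 93.8 to 268 in cortex CD51+ against 52.2 to 79.2 in cortex CD51-.

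Tgfb2 was also set against the 15 astrocyte markers, which were higher in CD51+ (12 of 15 called in cortex and 9 in hippocampus). It was at 0.393 to 2.89 CPM per 1000 CPM of these markers in cortex CD51+ and at 0 to 0.236 in cortex CD51-, apart from each other. In hippocampus the ranges were 0.696 to 1.36 and 0.335 to 3.24, which overlapped. Ltbp1 overlapped in both regions on this scale. Ltbp3 was at 0.0488 to 1.02 in cortex CD51+ and at 0 to 0.0392 in cortex CD51-, which held 2 counts of it. These ranges did not overlap, while those in hippocampus did (0.00237 to 0.0359 and 0 to 0.208).

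Beyond the 10 genes, 61 of 85 other listed pathway genes could be tested. In cortex 3 were called higher and 14 lower, and in hippocampus 0 higher and 8 lower, against the same shares of all genes as above. The median log2 fold changes in cortex and hippocampus were 0.59 and -0.24 for latency and activation, -1.99 and 0.03 for the other receptors, -1.3 and -0.37 for the Smads and regulators, and -4.79 and -3.17 for the microglial genes, beside -0.03 and -0.22 over all genes. Of the 8 other ligands 3 were tested and none was called in either region. Tgfb3, the third isoform, was at 0, 0.127 and 59.1 CPM in cortex CD51+ and at 4.44, 1.19 and 0 CPM in cortex CD51-, so a single library (CD51+ replicate 3) held nearly all of it, and neither region passed (edgeR adjusted p = 0.391 in cortex and 0.56 in hippocampus). Without that library the cortical log2 fold change of 3.37 turned to -4.41.

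Of 19 genes of latency and activation 10 were tested, and 1 was called. Itgb8, the integrin subunit that pairs with alpha-v, was at 365, 692 and 483 CPM in cortex CD51+ and at 27, 29.6 and 57.2 CPM in cortex CD51-. The ranges were far apart, and Itgb8 rose by 3.76 ± 0.7 log2 (SE; edgeR adjusted p = 0.00139). Hippocampus CD51+ had 255, 419 and 267 CPM, compared with 139, 150 and 35.7 CPM in hippocampus CD51-, with no overlap, and the log2 fold change of 1.54 ± 0.64 did not pass (adjusted p = 0.185). Itgav, the gene of CD51, differed by 0.91 ± 0.55 log2 in cortex and -0.04 ± 0.55 in hippocampus, neither past the threshold (edgeR adjusted p = 0.269 and 0.984). The hippocampal sign of Itgav changed with upper-quartile factors (0.2) and limma-voom (0.06).

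Of 11 other receptors 9 were tested. Acvr1c, the type I receptor ALK7, had 328 counts in cortex CD51+ and 0 in cortex CD51-, which makes it at least 158-fold higher against a floor of 3 counts over the group (edgeR adjusted p = 0.0471). That call was lost in 7 of 21 alternative fits, among them those without any 1 of cortex CD51+ replicate 1 or 2, the cortex CD51- replicates or hippocampus CD51+ replicate 2 (adjusted p 0.0566 to 0.1).

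Among 20 other Smads and regulators 18 were tested, 4 were lower in cortex and 3 in hippocampus, and 0 were higher in either. Skil, a co-repressor that binds Smads and is itself induced by the pathway, was at 1.17, 10.4 and 31.2 CPM in cortex CD51+ and at 1194, 1930 and 853 CPM in cortex CD51-. It fell by 6.54 ± 0.94 log2 in cortex (SE; edgeR adjusted p = 0.000162; -7.83 without CD51+ replicate 3) and fell by 5.31 ± 0.89 in hippocampus (0.00105). Tgif1, another co-repressor, was at 0.167 to 1.21 CPM against 74.5 to 248 CPM in cortex and at 0 to 1.37 CPM against 79.2 to 299 CPM in hippocampus. Pmepa1, a target that limits Smad signalling, was at 0.127 to 0.403 CPM against 69.1 to 119 CPM in cortex and at 0.133 to 4.16 CPM against 53.9 to 85.6 CPM in hippocampus. Both fell in both regions (edgeR adjusted p = 0.000245 and 0.000504 for Tgif1, 0.00144 and 0.0234 for Pmepa1). The Pmepa1 call in hippocampus was lost without CD51+ replicate 1 (0.109) or replicate 2 (0.111). Ski, the relative of Skil, fell by 3.49 ± 0.78 log2 in cortex (adjusted p = 0.00562; -2.86 without CD51- replicate 2).

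Of 20 induced targets 14 were tested, with 1 higher and 4 lower in cortex and 0 higher and 2 lower in hippocampus. Cdkn1a, a cell cycle inhibitor, had 3 counts against 889 in cortex, a ratio of 205 in favour of CD51- (95% counting interval 69.8 to 994; edgeR adjusted p = 0.00784). Tgm2, a transglutaminase, had 2 against 1289, a ratio of 445 (123 to 3679; adjusted p = 0.0162). In hippocampus both also fell (Cdkn1a adjusted p = 0.0331, Tgm2 0.027). Both hippocampal calls were lost without CD51+ replicate 2 or 3 or CD51- replicate 3 (adjusted p 0.0563 to 0.187), that of Cdkn1a also without CD51- replicate 2 (0.0534) and that of Tgm2 without CD51+ replicate 1 (0.0916) or with the libraries of the region alone (0.0531). The cortical Tgm2 call was lost without CD51+ replicate 2 (0.0558) or CD51- replicate 2 (0.0733). Timp3, an inhibitor of matrix metalloproteinases, went the other way and rose by 2.68 ± 0.64 log2 in cortex (adjusted p = 0.00897). The list's median log2 fold change in cortex was -5.83 as fitted and -2.74 with genes of 0 to 3 counts in a group set at their bound or ratio.

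Of the 7 microglial genes known to depend on TGF-beta, 6 were lower in cortex and 3 in hippocampus, and all 7 had a negative log2 fold change in both. P2ry12, a purinergic receptor, was at 91.1 to 226 CPM in cortex CD51+ and 1981 to 2791 CPM in cortex CD51-, a fall of 4.05 ± 0.7 log2 (SE; edgeR adjusted p = 0.000731), and fell by 3.17 ± 0.67 in hippocampus (0.00817; -4.68 without CD51+ replicate 3). In cortex Fcrls fell by 7.08, Gpr34 fell by 4.79 and Siglech fell by 5.22 log2. Without cortex CD51+ replicate 2 Gpr34 was at -5.97 and Siglech at -6.47. In hippocampus Fcrls was at 1.6, 4.93 and 99.9 CPM in CD51+, where replicate 3 is the library with the highest microglial sum, and its log2 fold change of -3.63 (adjusted p = 0.042) was -7.05 without that library. That call was lost without CD51+ replicate 1 (0.0918), CD51+ replicate 2 (0.145) or CD51- replicate 2 (0.0749), and with upper-quartile factors (0.0506), robust dispersion (0.0554) or the libraries of the region alone (0.0675). Olfml3 fell by 4.46 log2 in hippocampus (adjusted p = 0.0119), which was lost without CD51+ replicate 2 (0.0652) or CD51- replicate 2 (0.0702) and in limma-voom (0.0504). These genes are themselves microglial, and 2 of the 7 are among the microglial markers summed above.

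**Figure D5:**
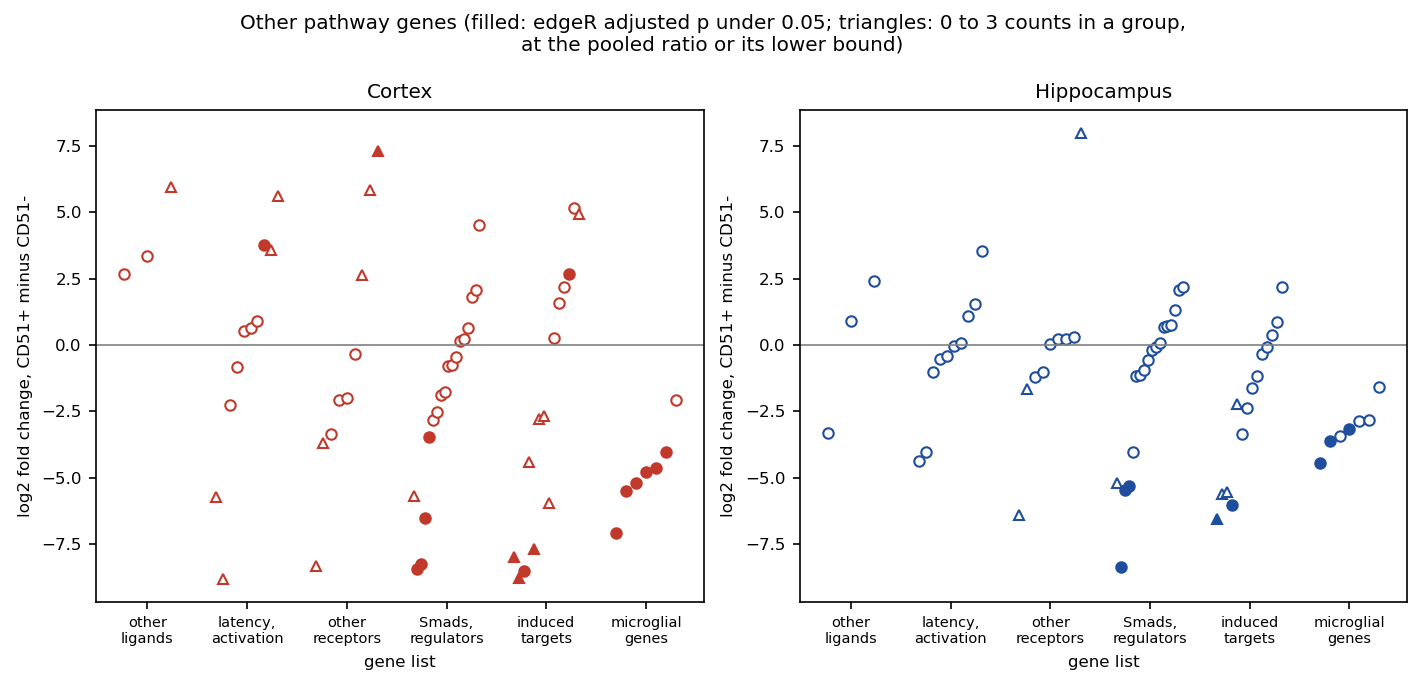
Log2 fold change of CD51+ against CD51- for every tested gene of 6 pathway lists in cortex (left) and hippocampus (right), filled where the edgeR adjusted p is under 0.05; triangles are genes with 0 to 3 counts in a group, drawn at the pooled ratio or its lower bound. The 7 microglial genes lie below 0 in both regions, and 14 genes are called lower and 3 higher in cortex.

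The genes whose log2 CPM followed each member most closely over the 12 libraries differed between the ligands. For Tgfb1 they were Il6ra, H2-K1 and Slfn8 (Pearson r across libraries 0.979, 0.978 and 0.978), and for Tgfb2 they were Fxyd1, Ddhd1 and Gpt2 (0.96, 0.955 and 0.955). Tgfbr2 was closest to Ptprc, the pan-leukocyte marker CD45 (0.975), Tgfbr1 to Hspa1b (0.969), Nrros to Bank1 (0.979) and Smad7 to Gm17024 (0.97). For Ltbp1 the closest gene was Mxi1 (0.927), for Ltbp3 Arrb1 (0.864), for Smad2 Pdzrn3 (0.858) and for Smad3 Itch (0.897). The 12 libraries share the class and region differences, so these values describe likeness only. As deviations from the group means, r was between 0.8 and 0.96 for the pairs named of Tgfb1, Tgfb2, Tgfbr1, Tgfbr2, Ltbp1, Nrros and Smad3. It was lower for Ltbp3 with Arrb1 (0.68), Smad2 with Pdzrn3 (0.61) and Smad7 with Gm17024 (0.55). The pairs were picked by r over the same libraries, which includes these deviations, so a high value is partly set by that choice.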

How the data were processed

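Per the file headers, the authors' deposited values are raw counts of read pairs per gene, made with featureCounts 2.0.4 over exons of GENCODE vM25 without strand; the submitters' processing notes name STAR, mm10 and DESeq2 1.40.2. Per the labels' protocols, libraries were made from 10 ng of RNA and read as pairs of 150 bases. Exon length is the other deposited column used. Symbols came from a GENCODE vM21 table, which held 55141 of 55401 IDs. Unstranded counting cannot separate genes that overlap on opposite strands.

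Counts were tested with edgeR 4.0.16 in R 4.3.3 (quasi-likelihood F test) using TMM factors, filterByExpr by group (minimum count 10, minimum total 15), 4 group levels over all 12 libraries and Benjamini-Hochberg adjustment over 12613 genes at 0.05. Contrasts were CD51+ minus CD51- in cortex, in hippocampus and averaged, hippocampus minus cortex, and the interaction; regions within a class were added after seeing the data. SE is the absolute log2 fold change over the square root of F. CPM uses TMM-scaled library sizes and is divided by exon kilobases where genes are compared. The fit gave a common dispersion of 1.64 (biological coefficient of variation 1.28). Total counts of 4.35 to 12.85 (in units of 1e6) per library set the precision, and a count of 0 allows up to 3 counts. The test was tested on simulated data, drawn with the dispersions that edgeR fitted or with smaller ones. Such data cannot show that the model fits these libraries.

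Genes named were all 10 members, Tgfb3, Itgav, Itgb8, up to 4 called genes per list and region by p, and for each member up to 3 genes of at least 20 CPM with the highest correlation. Members and lists were chosen with earlier results of these data known; the pair shares and levels relative to marker sums were computed after values were seen. Coding stretches were aligned as translated reading frames with Biopython. Alternatives were DESeq2 1.42.0, limma-voom (limma 3.58.1), RLE and upper-quartile factors, mitochondrial genes left out, no filter, 1 CPM in 3 libraries, robust dispersion, a replicate block, only the 6 libraries of a region, and each library left out. Reporter transgene reads were not analysed here, and a few genes the naming rule gives are not reported here. Figures were drawn with matplotlib 3.10.9.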

Additional observations from a re-analysis of the deposited data

How the results depend on the processing

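The count of called members in cortex stayed within 1.5 times of 5 in all 22 alternatives and that averaged over regions within 1.5 times of 6 in all 21. The share of all genes called was less stable. The main fit called 1428 of 12613 genes in cortex and 2868 in the average. In cortex DESeq2 called 5 members and 25.5% of all genes, and limma-voom 7 members and 17.2%. In the average both tools called 7 members, with 29.1% of all genes by DESeq2 and 24.3% by limma-voom. Leaving out 1 library gave 5 to 6 called in cortex, 6 to 7 in the average, 1 to 3 in hippocampus (main count 2), 0 to 2 between regions (main 0) and 0 to 1 for the interaction (main 0). Those fits tested 13959 to 14422 genes and called 879 to 1507 in cortex, 2112 to 3205 in the average and 198 to 559 in hippocampus. They called 11 to 69 between regions and 0 to 42 for the interaction. DESeq2 called 5 members in hippocampus, 4 between regions and 3 for the interaction, where it called 11.3%, 5.8% and 4.14% of all genes. In hippocampus upper-quartile factors left 1, where 389 of all 12613 genes were called. Between regions 1 was called with mitochondrial genes left out, 2 with no filter, 1 with robust dispersion and 1 within CD51+. Over all genes, in the same order, 26 of 12540, 292 of 24340, 112 of 12613 and 5 of 12613 were called. Apart from the fits named in the report, the cause of these changes was not tested.

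Signs of members far from the threshold turned. Smad2 in cortex ranged from -0.33 to 0.74 with 1 library left out. Smad3 in cortex was -1.04 in limma-voom and -0.31 with the replicate block, and -0.15 to 1.03 with 1 library left out. Ltbp3 in hippocampus was 0.59 in limma-voom and -2.26 to 2.21 with 1 library left out. Tgfb3 in cortex was -0.61 with the replicate block and -4.41 to 5.01 with 1 library left out. Itgav in hippocampus was 0.06 in limma-voom, 0.2 with upper-quartile factors and -0.39 to 0.36 with 1 library left out. Of 40 ranks of members by level, 6 moved by over 1 SD without length scaling.

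Libraries of the same replicate number did not deviate together more than others (18 pairs, correlations -0.05 to 0.03, against -0.04 to 0.06 for 36 pairs of different numbers). With a biological coefficient of variation of 1.28 and 3 libraries per group, such correlations can miss a shared animal. Whether equal numbers pair the samples is therefore not known. With the replicate block 6 members were called in cortex, 3 in hippocampus, 7 in the average, 0 between regions and 0 for the interaction. In the same order, that fit called 1260, 435, 2540, 28 and 0 of all 12613 genes. With the block Tgfbr2 in cortex (adjusted p = 0.0321), Smad3 in hippocampus (0.049) and Smad3 averaged over regions (0.0429) passed, while Acvr1c in cortex (0.0562) and Tgfbr1 between regions within CD51+ (0.0579) did not. Depth limits Ltbp3, Nrros and Smad7 in cortex, where a group held 1 to 3 counts, and a DESeq2 adjusted p for Ltbp3 was not given.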
